A study of Mus musculus with 2 samples.

Results

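The genes of DNA replication and mitosis described here are 40 of the 32285 genes counted in 2 single-cell libraries from the mouse small intestine: 19 that act in S phase and 21 that act in mitosis. They were chosen by name, and each name was found as 1 gene in both libraries. The libraries, called control 1 (titled an M1 control) and control 2 (titled an M3 control), form a single control group of C57BL/6 mice in a series on M1 and M3 muscarinic receptors. They hold cells of the proximal small intestine, released first by 20 mM EDTA for 60 min (a fraction rich in villi) and then by TrypLE, a trypsin-like enzyme, for 10 min (a fraction rich in crypts), passed through a 30 µm strainer and pooled. The sources used here give no age, sex, treatment or transgene for these animals, and do not say whether each library is from 1 animal. The p-values therefore measure only how far differences between classes varied between these 2 libraries, with the spread estimated over all classes fitted. That variation may be technical.

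In S phase a cell copies its DNA. Licensing factors (Cdc6, Cdt1) load the MCM helicase (Mcm2 to Mcm7), which the GINS complex (Gins2) helps to activate, the clamp Pcna holds polymerases on DNA, and Rrm1, Rrm2, Tyms and Dut supply or guard the nucleotide pool. Lig1 joins nascent strands, Ung removes uracil, and Hells and Uhrf1 maintain DNA methylation. In mitosis, cyclins A and B with Cdk1 drive entry, Plk1 and the Aurora kinases run the spindle, Bub1 and Bub1b guard chromosome attachment, and Cdc20 and Ube2c mark cyclins for destruction. In the intestine, transit-amplifying cells above the Lgr5-positive stem cells of the crypt divide, and enterocytes that move up the villus have left the cycle.

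Both sets of genes have well-known promoter elements. CCAAT is the word bound by NF-Y, TTTGAA is the cell cycle genes homology region (CHR) of the DREAM and MuvB complexes, and TTTGGCGC, TTTGCCGC, TTTCGCGC and TTTCCCGC are words of the E2F factors. They were searched on both strands, overlaps allowed, in RefSeq promoters (GRCm38.p6), which were found for 34 of the 40 genes, 17 of each set. In the 250 bases before the annotated start, the CHR word stood in 7 of 17 mitosis genes (41.2%) and in 1 of 17 S-phase genes (5.88%), beside 18.3% of all 27025 genes with a promoter. The E2F words showed the reverse, with 1 of 17 mitosis genes (5.88%), 6 of 17 S-phase genes (35.3%) and 2.16% of all genes. CCAAT was in 15 mitosis genes (88.2%), 10 S-phase genes (58.8%) and 37.5% of all genes. With the 50 bases after the start added, the CHR word was in 12 of 17 mitosis genes and still in 1 S-phase gene (all genes 20.2%), and the E2F words were in 10 of 17 S-phase genes and 1 mitosis gene (all genes 2.60%). A match is a run of letters and not a measured binding site.

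The 4 promoters below are the 250 bases before the start, written 5′ to 3′ on the gene's strand with the searched words in capitals on whichever strand they were found. Ube2c, the mitosis gene with the largest difference between crypt progenitor and T or NK-like cells, is at chr2:164769679-164769928 on the plus strand and holds 6 NF-Y words and 1 CHR word. Cdk1 is at chr10:69352913-69353162 on the minus strand and is the mitosis gene with all 3 kinds of word. Mcm6, the helicase gene that T or NK-like cells held most evenly with crypt cells among those past the threshold, is at chr1:128359706-128359955 on the minus strand and holds 3 E2F words and 2 NF-Y words. Pclaf, the S-phase gene that was detected where mitosis genes were, is at chr9:65890073-65890322 on the plus strand and holds 2 NF-Y words there, with an E2F word that straddles the start left in lower case.
Ube2c: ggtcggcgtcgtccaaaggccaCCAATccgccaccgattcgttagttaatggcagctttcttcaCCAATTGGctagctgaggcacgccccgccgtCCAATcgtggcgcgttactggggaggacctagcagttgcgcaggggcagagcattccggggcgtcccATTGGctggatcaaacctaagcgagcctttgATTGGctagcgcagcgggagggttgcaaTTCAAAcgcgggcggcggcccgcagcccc
Cdk1: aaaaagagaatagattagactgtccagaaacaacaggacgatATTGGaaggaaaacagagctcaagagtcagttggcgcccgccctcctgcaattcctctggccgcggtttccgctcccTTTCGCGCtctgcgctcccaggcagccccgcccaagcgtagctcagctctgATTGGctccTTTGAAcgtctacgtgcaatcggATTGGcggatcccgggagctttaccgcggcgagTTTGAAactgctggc
Mcm6: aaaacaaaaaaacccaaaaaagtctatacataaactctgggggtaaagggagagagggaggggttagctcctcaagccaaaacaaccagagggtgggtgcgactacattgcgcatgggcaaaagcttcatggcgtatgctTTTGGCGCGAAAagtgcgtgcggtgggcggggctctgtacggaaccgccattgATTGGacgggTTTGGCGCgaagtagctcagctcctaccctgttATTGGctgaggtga
Pclaf: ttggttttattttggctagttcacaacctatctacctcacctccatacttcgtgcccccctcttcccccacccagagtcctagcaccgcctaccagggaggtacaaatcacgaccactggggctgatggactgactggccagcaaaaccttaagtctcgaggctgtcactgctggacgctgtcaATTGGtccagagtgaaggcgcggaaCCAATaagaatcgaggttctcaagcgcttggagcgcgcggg

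**Figure D1:**
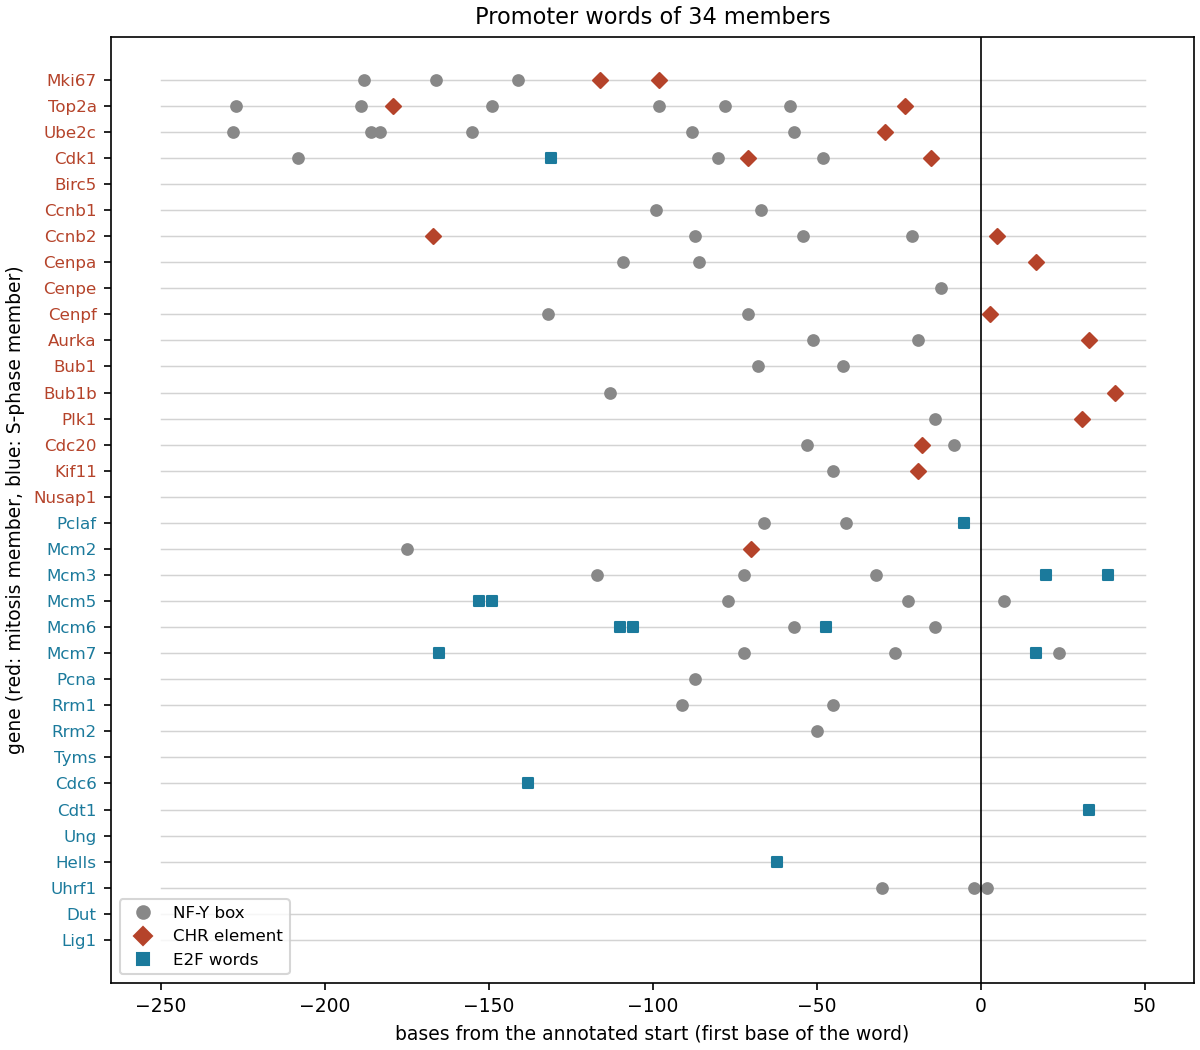
Position of the searched words (x axis, bases from the annotated start) in the first listed promoter of 34 genes (y axis). The CHR element (diamonds) lies in mitosis genes and Mcm2, and the E2F words (squares) lie in S-phase genes and Cdk1.

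After filters, 7115 cells of control 1 (median 3447 UMIs, the unique molecule counts) and 4714 of control 2 (median 3009.5) were clustered with these genes, wider lists of proliferation genes and unlisted genes that moved with them left out, and clusters were named from fixed markers. The crypt progenitor-like class had 461 cells in control 1 and 201 in control 2, T or NK-like 2311 and 1269, B or plasma-like 26 and 54, myeloid-like 153 and 64, enterocyte-like 3547 and 2377, and goblet-like 113 and 248; 378 and 427 cells stayed unnamed, and the rest fell in smaller classes. The names were rebuilt here and were not the submitters'. All 17 crypt markers had UMIs in the crypt class of both libraries. They also did in the enterocyte-like and T or NK-like cells of control 1. In the crypt class Olfm4 was at 1926 and 1411 CPM, against 3.65 and 4.77 in enterocyte-like cells. CPM are UMIs of the gene as a share of all UMIs of the class, scaled to a common total. Crypt markers summed to 3462 and 2494 in the crypt class and to 45.1 and 68.5 in enterocyte-like cells. Enterocyte markers summed to more in the crypt class, 4069 and 3107, against 82445 and 75536 in enterocyte-like cells. T or NK markers summed to 199 and 278 in the crypt class and to 47298 and 38069 in the T or NK class. The crypt class joined 2 kinds of cells: 420 and 184 in a cluster with a median of 3014 and 2036 UMIs and 0.133% and 0.193% mitochondrial UMIs, and 41 and 17 in deep clusters with a median of 42970 and 40554 UMIs and 6.53% and 5.93% mitochondrial UMIs. The epithelial gene Epcam was at 423 and 438 CPM in the shallow cluster and 1659.9 and 1942 in the deep ones. Lgr5 was at 3.96 and 5.64 against 123 and 58.5, and Olfm4 at 309 and 393 against 2931 and 2223. Fabp1, an enterocyte marker, was at 1683 and 1638 in the shallow cluster and 478 and 157 in the deep ones. In enterocyte-like cells Fabp1 was at 23560 and 20980. The shallow cluster had a crypt marker score of 0.094, under the 0.25 otherwise needed for a name, with 6 crypt markers detected, and was placed in the class because Ascl2 was among its 10 leading genes. The deep cells carried 3276 of the 5474 S-phase UMIs of the class in control 1 and 875 of 1773 in control 2, and the 10 crypt cells with the most mitosis UMIs held 48.8% and 59.3% of those of the class. The libraries shared 17 barcodes.

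Relative to all UMIs of a class, the crypt progenitor-like class had the highest sums of both sets, and the balance between the sets turned over between crypt and T or NK-like cells. In crypt cells the S-phase genes summed to 1384 CPM in control 1 and 1479 in control 2, and the mitosis genes to 2888 and 3215. In T or NK-like cells the order was the other way, with 483 and 443 for S phase and 262 and 230 for mitosis. S-phase genes thus made up 32.4% (95% exact binomial interval 31.7% to 33.1%) and 31.5% (30.3% to 32.7%) of the UMIs of all 40 genes in crypt cells, and 64.9% (63.9% to 65.8%) and 65.9% (64.4% to 67.3%) in T or NK-like cells. These intervals cover counting error only. The libraries of the classes do not overlap, and with 2 libraries a class an exact permutation test cannot give a two-sided p below 0.333, so no test was made. The shallow and deep parts of the crypt class were on the same side, at 35.0% and 36.8% S phase in the shallow cluster and 30.9% and 27.5% in the deep ones.

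Means over the libraries put the crypt class 3.09-fold above the T or NK class for S phase (1432 ± 66.8 against 463 ± 27.9, SD, n = 2) and 12.4-fold for mitosis (3051 ± 232 against 246 ± 22.5). Against enterocyte-like cells the ratios were 14.1 for S phase and 72.7 for mitosis. Enterocyte-like cells held 99.8 and 103 CPM of the S-phase genes and 44.3 and 39.6 of the mitosis genes, which is the background for the classes below. Pcna alone gave 986 of the 2105 S-phase UMIs in control 1 and 599 of 1187 in control 2. The 10 cells with the most mitosis UMIs held 30.8% and 33.7% of those, with enterocyte markers at 24234 and 10001 CPM (other enterocyte-like cells 84125 and 77306). The S-phase share of enterocyte-like cells (mean 70.7%) was 42.1% with only the fixed lists kept out of the clustering and 41.6% after 1 round of clustering, so the order of the sets in this class depended on the clustering.

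**Figure D2:**
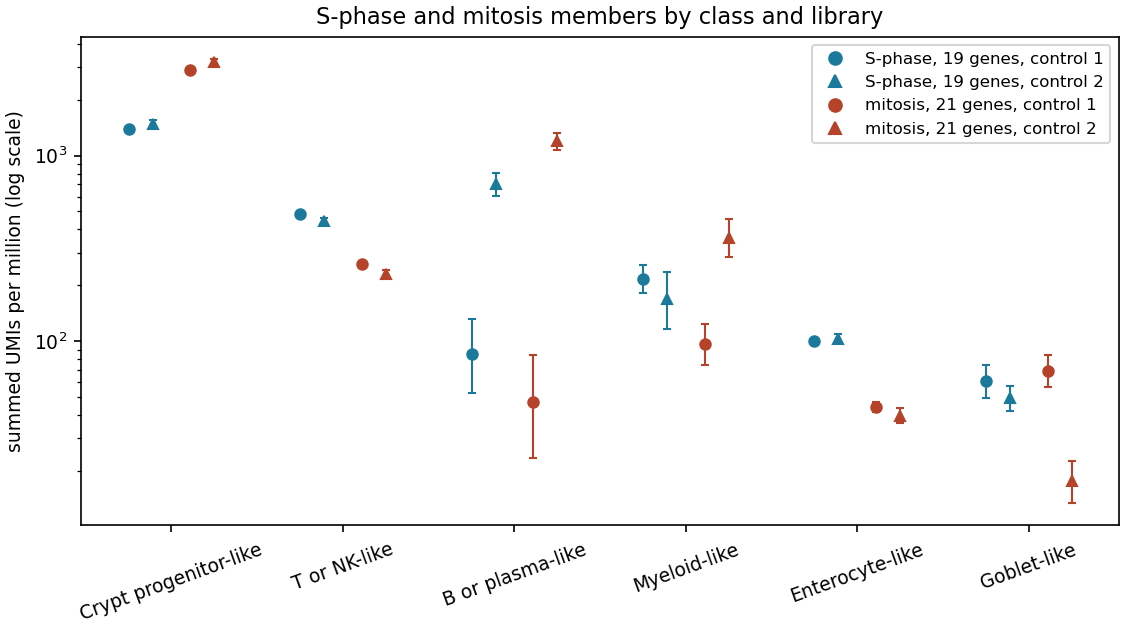
Summed CPM (y axis, log scale) of the S-phase and mitosis genes in 6 classes, 1 point per library with its exact 95% Poisson interval. Mitosis lies above S phase in both crypt libraries and below it in both T or NK-like and both enterocyte-like libraries (in the last, the order turned under 2 other clusterings), and the B or plasma-like libraries lie far apart.

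The 7 genes of each set with the most UMIs in the crypt progenitor-like class are given by library. Of the mitosis genes, Stmn1, which binds tubulin and destabilizes microtubules, had 683 CPM in control 1 and 618 in control 2, against 39.9 and 27.0 in T or NK-like and 11.8 and 7.28 in enterocyte-like cells. Ube2c had 387 and 371, against 11.5 and 17.9 and against 4.03 and 3.90. Top2a, the topoisomerase that untangles chromosomes, had 277 and 470, against 46.2 and 38.9 and against 2.23 and 3.73. In each of these genes both crypt libraries were above all libraries of the other 2 classes. Birc5, of the chromosomal passenger complex with Aurkb, had 239 and 228 in crypt cells and 14.4 and 13.0 in T or NK-like cells. Cdk1 had 136 and 178 in crypt cells and 11.2 and 10.2 in T or NK-like cells. Mki67, which coats mitotic chromosomes, had 127 and 168, against 27.9 and 18.5. Cenpa, the histone H3 variant of centromeres, had 128 and 105, against 23.5 and 19.4. The T or NK-like levels of these 4 genes, too, lay below both crypt libraries. Mki67 was at 35.7 and 84.6 in the shallow cluster and 184 and 235 in the deep ones, and the lower shallow value is near the 27.9 of T or NK-like cells. In the shallow cluster alone, both libraries were above both T or NK-like libraries in 21 of 21 mitosis and 18 of 19 S-phase genes (not Mcm4). The share of all genes that lay apart in this way was not counted, so these counts are a description only.

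The S-phase genes differed less between the classes. Pclaf, a small protein that binds Pcna, had 226 and 228 CPM in crypt cells, 24.8 and 8.29 in T or NK-like cells and 3.08 and 2.17 in enterocyte-like cells. Pcna had 153 and 186, against 76.3 and 76.7 and against 46.8 and 51.9. Dut, the dUTPase, had 160 and 145, against 66.1 and 59.2 and against 4.84 and 3.12. In Pcna, Dut and Pclaf the 3 classes kept the same order and their libraries did not overlap. Tyms, thymidylate synthase, had 118 and 123 in crypt cells and 18.8 and 16.9 in T or NK-like cells. Lig1 had 90.3 and 109, against 29.0 and 32.2. Mcm7 had 95.3 and 73.4, against 28.7 and 24.9. It overlaps 5 other annotated genes, 2 of them antisense and the others on its own strand. Reads of those 2 could not be told apart from its own if the counting ignored strand. For Hells the crypt libraries were at 83.2 and 94.2 and the T or NK-like ones at 20.8 and 24.0. For 19 of 19 S-phase genes and 21 of 21 mitosis genes both crypt libraries had UMIs, from 7.33 CPM (Cdc6, control 1) to 683 (Stmn1, control 1).

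Against enterocyte-like cells, 19 of 19 S-phase and 21 of 21 mitosis genes were higher in the crypt progenitor-like class, by edgeR's quasi-likelihood test at a Benjamini-Hochberg adjusted p below 0.05; 25.4% of all 11811 genes tested were called higher and 26.7% lower. All 40 genes passed the filter on low counts. The median log2 fold change was 4.02 for S phase (from 1.33 to 6.03) and 6.12 for mitosis (from 4.44 to 7.23), with -0.08 over all tested genes. The gap between the sets depended on the clustering. The medians were 2.78 and 2.94 after 1 round, and 2.72 and 3.13 with only the fixed lists kept out. The largest of the mitosis genes were Aurkb, the Aurora kinase of the passenger complex (7.23, SE 0.47, edgeR adjusted p = 5.8e-11), with 40.7 and 60.1 CPM against 0.285 and 0.0867, and Bub1 (7.09, SE 0.73, edgeR adjusted p = 5.9e-08), with 0 and 3 UMIs in enterocyte-like cells, a ratio of counts of 215 with an exact interval of 71.6 to 1061. The smallest were Cenpa (4.75) and Birc5 (4.44). Among the S-phase genes Uhrf1 (6.03) and Pclaf (5.99) were largest, and Cdt1 (1.82) and Pcna (1.33, SE 0.22, edgeR adjusted p = 2.7e-05) smallest. Pcna was thus the gene of the 40 with the smallest difference. Scaling by total UMIs alone moved the share of higher genes among all called from 48.7% to 68.9% and the median of all genes to 0.36, and left 40 of the 40 genes called higher.

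Against T or NK-like cells, 21 of 21 mitosis and 18 of 19 S-phase genes were higher in the crypt class and 0 lower (edgeR; the same counts at an unadjusted p under 0.05 and by DESeq2), where 35.6% of all tested genes were called higher and 27.7% lower. With scaling by total UMIs alone the share of higher genes among all called went from 56.2% to 41.6% and the median of all genes to -0.31, and 21 mitosis and 17 S-phase genes were called higher. The median log2 fold change was 2.12 for S phase and 3.88 for mitosis, with 0.12 over all genes. Ube2c (5.17, SE 0.41, edgeR adjusted p = 1.5e-10) and Ccnb1, cyclin B1 (4.95), led the mitosis genes, and Kif11, the motor that pushes spindle poles apart (3.07), and Cenpa (2.88) were last. Pclaf (4.25, SE 0.45, edgeR adjusted p = 2.0e-08) and Ung (3.80) led the S-phase genes.

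At the other end of the S-phase list were helicase genes. Mcm6 had 76.4 and 66.7 CPM in crypt cells and 58.7 and 57.4 in T or NK-like cells, a log2 fold change of 0.74 (SE 0.25, edgeR adjusted p = 0.012) that did not pass with total-UMI scaling (0.29) or without the library as a block (0.76). Mcm4 had 29.3 and 29.2 in crypt cells and 29.9 and 30.3 in T or NK-like cells, and its log2 fold change of 0.42 (SE 0.31, edgeR adjusted p = 0.24) did not pass; with total-UMI scaling it was -0.03. The 2 subunits belong to the same complex as Mcm5 (1.88) and Mcm7 (2.12), which were higher in crypt cells. Both comparisons share the crypt libraries, so they are not independent of each other.

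**Figure D3:**
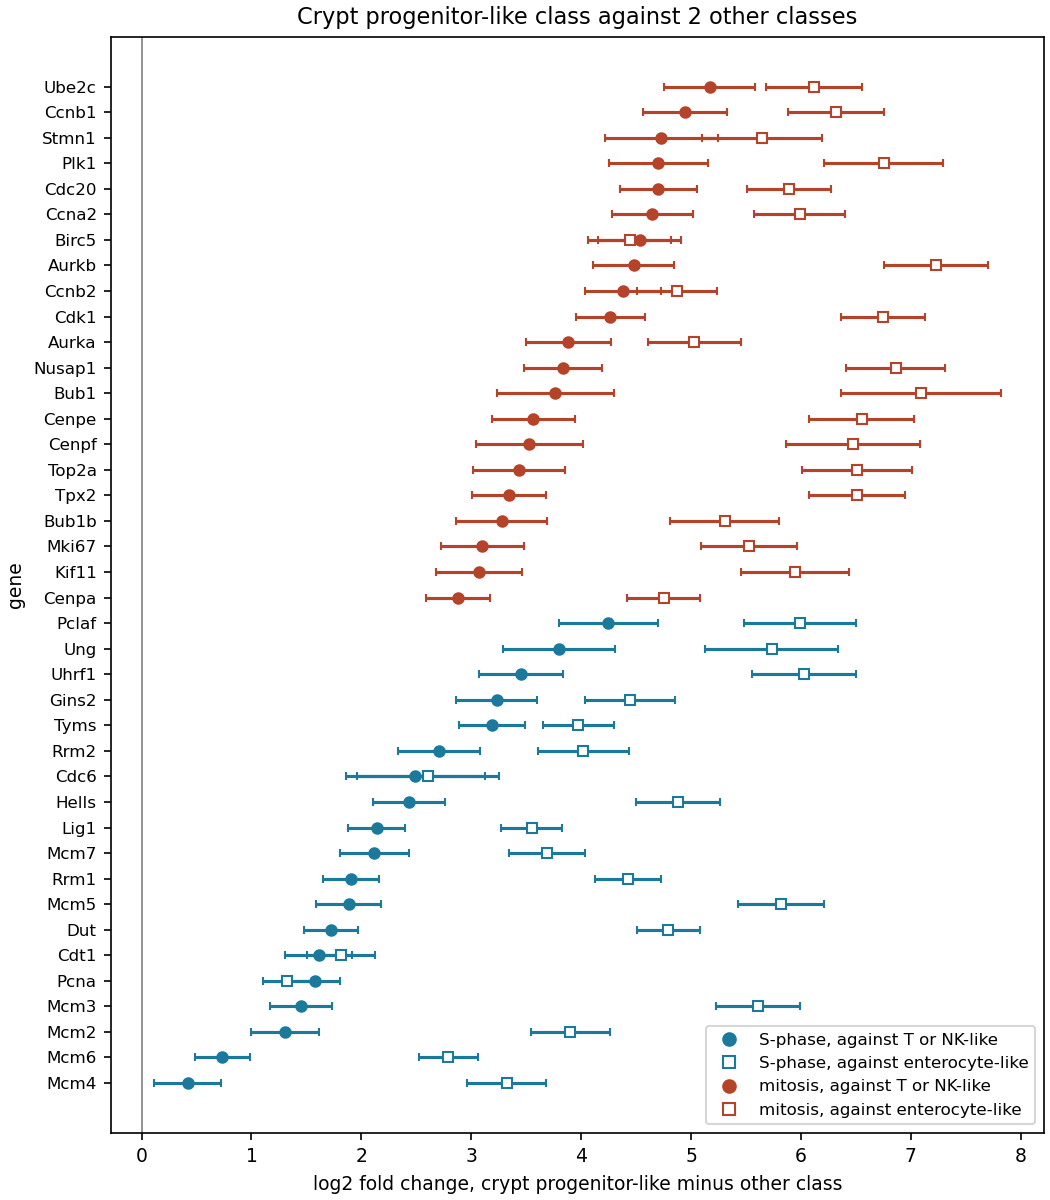
Log2 fold change (x axis, bars are the standard error) of each gene (y axis) in the crypt progenitor-like class minus T or NK-like cells (filled circles) and minus enterocyte-like cells (open squares). Mcm4 and Mcm6 lie nearest to 0 against T or NK-like cells, and Pcna nearest to 0 against enterocyte-like cells.

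Most genes of the wider lists of replication, spindle and cycle entry were also higher in the crypt class. Among all tested genes, 25.4% were called higher and 26.7% lower against enterocyte-like cells. Against enterocyte-like cells, 40 of 43 tested genes of replication fork and repair were higher (median 3.38), 45 of 46 of the mitotic spindle and cytokinesis were higher and 0 lower (4.95), and 15 of 19 of cycle entry and E2F were higher and 0 lower (3.52). Examples were the exonuclease Exo1 (9.86 and 10.8 CPM, with 1 UMI in all enterocyte-like cells, a ratio of counts of 329 with an exact interval of 56.5 to 13249), the condensin subunit Ncaph (6.500) and cyclin E1 (Ccne1, 5.96). Of 16 tested cycle inhibitors 8 were lower and 3 higher (median -0.82); with total-UMI scaling Btg2, Rbl2 and Btg1 were no longer called, which left 5 of those 8, and with relative log expression (RLE) size factors Rbl2 and Btg1 were not. Cdkn1a, which encodes the inhibitor p21, fell by 3.21 on the log2 scale, from 210 and 264 CPM in enterocyte-like to 36.4 and 30.0 in crypt cells. The higher 3 were Wee1, the kinase that holds Cdk1 inactive (2.03), Cdkn2c (1.96) and Rbl1 (0.81).

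Against T or NK-like cells, 29 of 43 fork and repair genes were higher and 3 lower (median 1.67). Of the spindle genes 44 of 46 were higher and 0 lower (2.97), and of the cycle entry genes 14 of 19 were higher and 1 lower (1.94). Among all tested genes, 35.6% were called higher and 27.7% lower. The lower fork genes were Rpa1 (-2.29; 18.7 and 23.4 CPM against 138 and 137), Blm (-1.14) and Rpa2 (-0.72). Rpa1 and Rpa2 encode subunits of the complex that coats single-stranded DNA in replication and in repair, and Blm a helicase of recombination. Of the D-type cyclins, which open the cycle with Cdk4 or Cdk6, Ccnd1 and Ccnd3 went opposite ways. Ccnd1 was at 74.9 and 115 in crypt cells and 1.12 and 0.904 in T or NK-like cells, and Ccnd3 at 37.2 and 23.4 against 345 and 369. Their log2 fold changes were 6.83 and -3.06. Ccnd2, at 872 and 781 in T or NK-like cells, was not called lower in crypt cells. Of 16 inhibitors 6 were higher, among them Cdkn2b (2.63), and 8 lower, among them Trp53inp1 (-4.04) and the pocket protein gene Rbl2 (-2.60).

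Counts per cell showed how the genes were spread. With every cell thinned to 2000 UMIs, which left out 135 and 92 crypt, 340 and 260 T or NK-like and 1420 and 987 enterocyte-like cells as too shallow, 62.0% (202 of 326) and 64.2% (70 of 109) of crypt cells held at least 2 UMIs of the mitosis genes. The same share was 2.59% (51 of 1971; exact interval 1.93% to 3.39%) and 2.68% (27 of 1009; 1.77% to 3.87%) of T or NK-like cells and 0.846% and 0.360% of enterocyte-like cells, which should lack mitosis gene expression. For the S-phase genes it was 50.3% and 44.0% of crypt cells, 16.5% and 18.1% of T or NK-like cells and 2.49% and 3.74% of enterocyte-like cells. S phase was thus the more frequent set in T or NK-like cells and mitosis in crypt cells. In B or plasma-like cells 1 of 23 and 4 of 42 held at least 2 mitosis UMIs, and in myeloid-like cells 1 of 82 and 1 of 30. Without thinning, the mitosis shares were 72.0% and 69.7%, 7.44% and 6.07%, and 2.99% and 2.23% at median depths of 3256 and 2233, 5262 and 5272, and 2400 and 2325 UMIs.

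S-phase UMIs were also found in cells in which no mitosis UMI was detected. T or NK-like cells of this kind, thinned to 2000 UMIs (1738 and 885 cells), held 344 (exact Poisson interval 325 to 364) and 374 (346 to 404) CPM of the S-phase genes, where such enterocyte-like cells held 92.2 and 123 and such crypt cells (76 and 22 cells) 664 and 432. At 2000 UMIs a cell with no mitosis UMI may still express these genes below detection. T or NK-like cells with at least 2 mitosis UMIs held 1951 and 1667, near the 1703 and 1943 of such crypt cells. Mitosis UMIs were concentrated in few T or NK-like cells: the 10 cells with the most held 48.5% of them in control 1 and 71.8% in control 2, against 18.1% and 18.9% for the 10 cells with the most S-phase UMIs. Those 10 mitosis cells had T or NK markers at 30832 and 35896 CPM, enterocyte markers at 1993 and 3874 (other T or NK-like cells 3691 and 2209) and crypt markers at 81.5 and 84.0 (90.0 and 120).

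**Figure D4:**
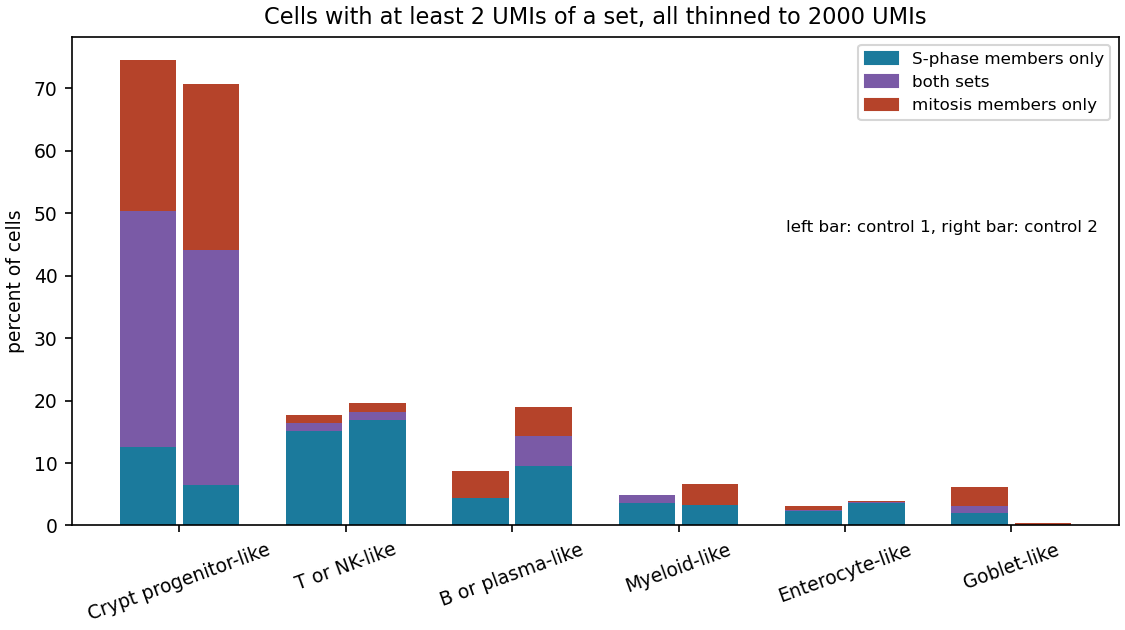
Percent of cells (y axis) of 6 classes with at least 2 UMIs of the S-phase genes only, of both sets, or of the mitosis genes only, after thinning each cell to 2000 UMIs; the left bar is control 1 and the right bar control 2. In T or NK-like cells nearly the whole bar is S phase only, and in crypt cells both sets and mitosis only make up most of it.

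Gene by gene, this concentration separated the S-phase genes from each other. Cells with at least 2 UMIs of other mitosis genes carried 12.3% of all T or NK-like UMIs in control 1 and 9.13% in control 2. They held 95.8% and 96.4% of the Pclaf UMIs (309 and 55 UMIs), a share in the range of Ccna2, cyclin A2 (98.4% and 96.2%), and Ube2c (90.2% and 94.1%). Cdc6 (88.5% and 81.8%, on 26 and 11 UMIs) and Rrm2 (80.8% and 70.6%) followed. By contrast they held 22.7% and 20.2% of the Mcm6 UMIs (731 and 381), 25.3% and 17.4% for Mcm4, 25.7% and 17.1% for Pcna, and 31.1% and 25.2% for Dut. Rrm2 and Rrm1, the small and large subunits of ribonucleotide reductase, were thus apart, since the share for Rrm1 was 32.4% and 21.2%. Among the mitosis genes Cenpa stood lowest, at 35.8% and 45.7%, and the other 20 were between 62.5% and 98.4%. These shares describe the libraries, and no test was made of them. In crypt cells such a split could not be read, because cells with 2 or more mitosis UMIs carried 88.5% and 87.5% of all UMIs.

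**Figure D5:**
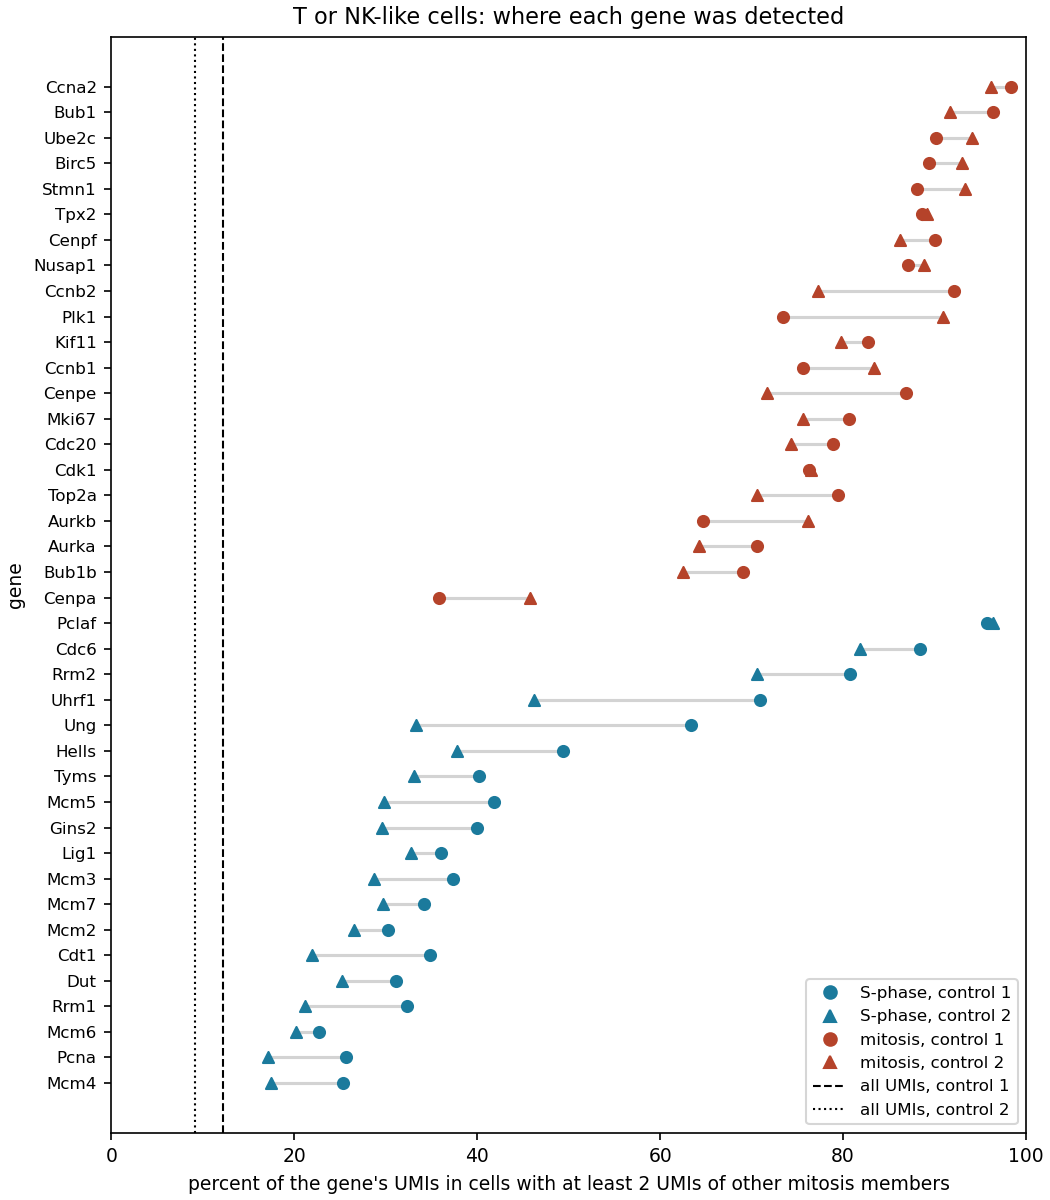
For T or NK-like cells, the percent of each gene's UMIs (x axis) that lay in cells with at least 2 UMIs of other mitosis genes, 1 point per library, with the same percent for all UMIs as vertical lines. Pclaf, Cdc6 and Rrm2 lie among the mitosis genes, and Cenpa lies among the S-phase genes.

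Between T or NK-like clusters the mitosis sum varied more than the S-phase sum. The S-phase sum ranged from 316 to 685 CPM over the 10 clusters and 2 libraries, and the mitosis sum from 11.6 to 1023. The lowest mitosis sum was in the cluster led by Ncr1, an NK cell receptor gene (61.4 and 11.6 on 66 and 25 cells), but it rests on 27 and 2 UMIs. Its exact interval in control 1, 40.5 to 89.3, overlaps that of the cluster led by Nr4a3 (45.4 to 105). The highest was in the cluster led by Mei1 in control 2 (1023 on 54 cells), where 3 cells held 96.6% of it and control 1 was at 227. In the cluster led by Cd5 the order of the libraries was the other way, at 576 and 93.6. In the cluster led by Spp1 the libraries were alike, at 331 and 334, and 3 cells held 43.7% and 79.6% of those UMIs.

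B or plasma-like cells gave a result that rests on 1 library. The S-phase genes summed to 85.6 CPM in control 1 (20 UMIs in 26 cells) and 704 in control 2 (193 UMIs in 54 cells), and the mitosis genes to 47.1 (11 UMIs) and 1193 (327 UMIs). The class joined clusters led by Ebf1 (11 and 40 cells) and by Jchain (15 and 14 cells). In control 1 the Jchain-led cells held 198508 of the 233624 UMIs. In the Ebf1-led cluster the S-phase sum was 342 (12 UMIs) and 1005 CPM, and the mitosis sum 256 (9 UMIs) and 1695. The part of this mix in the difference between the libraries was not tested. Over the whole class, all 21 mitosis and 18 of 19 S-phase genes were higher in control 2, and 16 mitosis and 9 S-phase genes had no UMI in control 1. In control 2, 3 cells of 10807 to 14760 UMIs held 94.2% of the mitosis UMIs, and the other 51 cells held 19. Those 3 cells had B or plasma markers at 8434 CPM, T or NK markers at 104 and crypt markers at 208, where the other 51 cells had B or plasma markers at 166250. The 51 cells include the 14 of the Jchain-led cluster, and the marker list holds immunoglobulin genes. The 2 marker sums thus do not compare the 3 cells with other Ebf1-led cells alone.

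Against T or NK-like cells, 8 of 21 mitosis and 2 of 19 S-phase genes were called higher and 0 lower in the B or plasma-like class (edgeR; 15 and 2 higher and 0 lower at an unadjusted p under 0.05, and 7 and 1 higher and 0 lower by DESeq2), where 5.37% of all tested genes were called higher and 8.46% lower. The median log2 fold change was 0.31 for S phase and 1.79 for mitosis, with -0.42 over all genes. Within control 1 alone, where the Jchain-led cluster held 198508 of the 233624 UMIs, the medians were -2.51 and -2.95. Within control 2 alone they were 0.71 and 2.12, so the direction held in 1 of 2 libraries. These single-library medians are of log2 ratios of CPM with 1 CPM added, without the scaling or the fit behind 0.31 and 1.79. In control 1, 16 of 21 mitosis genes had 0 UMIs, and their ratios rest on the added 1 CPM. With total-UMI scaling the S-phase median was -0.21 and 5 of the 40 genes were called. The share of higher genes among all called was 38.8%, and 16.0% with total-UMI scaling, 57.4% with RLE size factors and 65.2% with DESeq2, with all-gene medians of -0.98, -0.06 and 0.09. Stmn1 was at 4.28 and 270 CPM in B or plasma-like cells (2.57, SE 0.56, edgeR adjusted p = 0.0022), Ccna2 at 0 and 43.8 (2.85), Pclaf at 0 and 142 (2.78) and Rrm2 at 8.56 and 47.4 (2.32). In Stmn1, Ccna2 and Pclaf the control 1 value was below both T or NK-like libraries, and in Rrm2 it lay between them (12.5 and 5.12). Cenpa was the called mitosis gene with both libraries above T or NK-like cells, at 30.0 and 58.4 (1.69, SE 0.48, edgeR adjusted p = 0.016); its call was lost with total-UMI scaling, as were those of Bub1b, Ccnb2, Cdk1 and Rrm2. At the low end were Plk1 (0.85, adjusted p = 0.80; 2 UMIs, a ratio of counts of 1.25 with an exact interval of 0.148 to 4.73) and Cenpf (0.22, adjusted p = 0.93) of the mitosis set and Pcna (-0.69, adjusted p = 0.27) and Mcm6 (-0.70, adjusted p = 0.37) of the S-phase set, none of them past the threshold in edgeR. With all genes allowed in the clustering, 2 of the 3 cells that held the mitosis UMIs fell into an unnamed cluster and 0 of the 40 genes were called.

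Of the wider lists in B or plasma-like cells, 7 of 46 spindle genes were higher and 0 lower (median 1.36), among them the phosphatase gene Cdc25b (3.21; 4.28 and 47.4 CPM against 3.86 and 4.22, where the first value is 1 UMI and the second 13). Fork and repair genes had 2 of 43 higher, Pold1, a polymerase delta subunit (1.84), and Cdca7 (2.44, at 0 in control 1), and 2 lower, Rpa2 (-2.16) and Rpa1 (-1.60). Cycle entry had 0 of 19 higher and 2 lower: Cdk6 (-3.86) and Ccnd2 (-3.21; 72.8 and 40.1 against 872 and 781). Of 16 inhibitors 1 was higher, Trp53inp1 (1.64; 351 and 62.0 against 114 and 107), and 2 were lower, Rbl2 (-2.66) and Cdkn1b (-1.50). Among all tested genes, 5.37% were called higher and 8.46% lower in this comparison. Cdca7 and Trp53inp1 were named after their values were seen. With total-UMI scaling Cdca7, Pold1, Trp53inp1 and 3 of the 7 spindle genes did not pass, and with RLE size factors Rpa2 and Cdkn1b did not.

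Myeloid-like cells held less of the S-phase set than T or NK-like cells in both libraries. Of the mitosis set they held less in control 1 and more in control 2. The S-phase genes summed to 217 and 168 CPM (139 and 34 UMIs) and the mitosis genes to 96.7 and 361 (62 and 73 UMIs). In each library 3 cells held most of the mitosis UMIs, 61.3% and 93.2%, and 1 of these cells alone held 32 of the 62 and 65 of the 73. Those 3 cells had T or NK markers at 9465 in control 1 and 142 in control 2, and myeloid markers at 1418 and 1159.5 (other myeloid-like cells 16495 and 12567). T or NK markers over the whole class were at 5667 in control 1 and 401 in control 2; their part in the result was not tested. In the cluster led by C1qc, a macrophage complement gene, the mitosis sum was 33.8 and 43.2 (11 and 3 UMIs). In the cluster led by Ccl17, a dendritic cell chemokine gene, it was 161 and 527 (51 and 70 UMIs). There 3 cells held 74.5% and 97.1%, and the 1 cell with 65 mitosis UMIs is among those of control 2.

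Against T or NK-like cells, 2 of 19 S-phase genes were lower and 0 higher, and 0 of 21 mitosis genes were called in either direction (edgeR; 8 S-phase genes lower and 1 mitosis gene in each direction at an unadjusted p under 0.05, and 1 S-phase gene lower by DESeq2), where 14.9% of all tested genes were called higher and 14.1% lower. The 2 called were Mcm6, at 14.03 and 0 CPM in myeloid-like cells (-2.12, SE 0.48, edgeR adjusted p = 0.0015), and Mcm2, at 3.12 and 0 (edgeR adjusted p = 0.031), which had 2 UMIs over both libraries, a ratio of counts of 0.138 to T or NK-like cells with an exact interval of 0.0166 to 0.502. Rrm2 had no UMI in either myeloid-like library and 190 in T or NK-like cells, which makes it at least 2.80-fold lower against a floor of 3 counts over both libraries, and Uhrf1 at least 1.55-fold lower; Ung and Ccnb1 were also at 0, with T or NK-like levels under that floor. The median log2 fold change was -0.88 for S phase and -0.21 for mitosis (-0.24 over all genes). With genes at 0 set to their bound, or left out where both levels are under the floor, the medians were -0.70 and -0.15. The mitosis median was 0.12 with DESeq2. As a log2 ratio of CPM with 1 CPM added, without a fit, it was -1.17 within control 1 and 0.49 within control 2. The share of higher genes among all called was 51.3%, and 27.8% with total-UMI scaling, 62.1% with RLE size factors and 66.1% with DESeq2, with all-gene medians of -0.69, -0.07 and 0.02.

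The other genes at the ends of the myeloid comparison did not pass. Cdc6 (edgeR adjusted p = 0.46; 3 UMIs, a ratio of counts of 1.83 with an exact interval of 0.362 to 5.79) and Gins2 (1.11, edgeR adjusted p = 0.28) were the largest of the S-phase genes. Bub1 was at 3.12 and 14.8 CPM (2.08, edgeR adjusted p = 0.16) and Cenpf at 3.12 and 89.0 (1.73, edgeR adjusted p = 0.11), a value below 0 with cells under 10% mitochondrial UMIs (-1.86), and Cenpa was lowest among mitosis genes with a UMI (-1.79, edgeR adjusted p = 0.073). Of the wider lists, 7 of 43 fork and repair genes were lower and 0 higher, and 4 of 46 spindle genes were higher and 4 lower. Of 19 cycle entry genes 1 was higher and 3 lower, and of 16 inhibitors 1 was higher and 5 lower. Among all tested genes 14.9% were called higher and 14.1% lower. The fork, spindle and cycle entry counts were near or below these shares, and the count of lower inhibitors was above. Ccnd1 was the higher cycle entry gene, at 40.5 and 39.6 CPM against 1.12 and 0.904 (5.70), and Ccnd3, Ccnd2 and Cdk6 were the lower ones. The DNA methyltransferase gene Dnmt1 (-1.82) was among the lower fork genes, and Kif23, a motor of cytokinesis, was at 9.35 and 64.3 (2.63) among the higher spindle genes, beside Cks1b (1.68), Hjurp (1.29) and Tubb5 (1.16), which did not pass with total-UMI scaling. The lower spindle genes were Cdca2 (1 UMI, a ratio of counts of 0.0707 with an exact interval of 0.00178 to 0.397), Racgap1 (-2.08) and the condensin genes Smc2 (-1.998) and Smc4 (-1.37). Among inhibitors Btg2 was higher (0.90, lost with total-UMI scaling), and Rb1 (-1.82), Rbl2 (-1.50), Cdkn1b (-0.92), Trp53inp1 (-2.11) and Wee1, at 0 UMIs in both myeloid-like libraries and so at least 4.45-fold lower against the same floor, were lower. With RLE size factors Cdca2 and Cdkn1b did not pass. How much of the control 2 values of Cenpf and Kif23 came from the 1 cell with the most mitosis UMIs was not counted. Tubb5, Smc4, Btg2, Cdkn1b and, in this comparison, Rbl2 were named after their values were seen. The comparisons of B or plasma-like and of myeloid-like cells share the T or NK-like libraries with each other and with the crypt comparison.

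Goblet-like cells, which were not contrasted, were at 60.9 and 49.4 CPM for S phase and 69.4 and 17.6 for mitosis. In control 1, 10 of 113 cells held 92.5% of the mitosis UMIs.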

How the data were processed

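Cells from 2 libraries were measured by droplet 3′ single-cell RNA sequencing. The deposited values are raw UMI counts per gene and barcode, made by the authors with Cell Ranger 7.1.0 per the file headers; the submitters' processing notes also name version 6.1 of that tool, and give both GRCm38 and mm10 as builds. How barcodes were kept, the annotation release and whether intron or antisense reads were counted are not given in the sources used here. By GENCODE M21, 17 of the 40 genes overlap another annotated gene and 13 an antisense one. The 40 genes and all lists were chosen with earlier results of these data known.

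Control 1 had 9342 barcodes with 54451793 UMIs and control 2 had 7109 with 36139325. Removed were barcodes under 500 genes (1719 and 2094) and those whose mitochondrial UMIs reached 25% (503 and 273). Scrublet called 5 of 7120 (0.0702%) and 28 of 4742 (0.590%) as doublets; with both shares far under the expected rate of 0.06, doublets may remain in both libraries. Clustering used scanpy 1.11.5 (2000 variable genes, 40 components, 15 neighbours, Leiden resolution 1.0) without 171 listed proliferation genes, 113 mitochondrial and ribosomal protein genes, 67 histone genes and 121 genes that moved with the 40. Clusters were named from 150 markers in 14 lists; the naming rule, the genes kept out beyond the lists and the second round of clustering were set after the data were seen.

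UMIs were summed per class and library and tested in 1 joint fit over classes with edgeR 4.0.16 (R 4.3.3; quasi-likelihood test, TMM, filterByExpr, library as a block), adjusted by Benjamini-Hochberg over 11811 genes at 0.05. The block pairs classes of the same library, which come from the same cell suspension. CPM are shares of the class's UMIs. Named were the 7 genes of each set with the most UMIs in crypt cells, the 2 largest and 2 smallest changes of each set per comparison, and up to 3 genes per direction of each wider list with libraries that do not overlap; others are marked where they stand or are part of a described group. Tested on data simulated for crypt against T or NK-like cells (10707 genes), the fit recovered 47 of 100 genes changed 2-fold and 99 of 100 changed 4-fold, and called 10 unchanged genes. Apart from the changed genes, all raised in crypt, the simulated classes shared 1 expression profile. The simulation thus does not cover the broad differences between the real classes. The result of 1 gene of the wider lists is not reported here. Alternatives were DESeq2 1.42.0, other scalings and filters, leaving out a library, and other cell filters and clusterings. With a library left out no fit was made, and the differences are log2 ratios of CPM with 1 CPM added. Intervals are exact, at 95%, and cover counting error only.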

Additional observations from a re-analysis of the deposited data

How the results depend on the processing

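The counts of genes called in the crypt comparisons stayed within 1.5 times under every alternative fitted, but the sizes of the differences did not all hold. Against enterocyte-like cells the medians of 4.02 (S phase) and 6.12 (mitosis) were 2.78 and 2.94 after 1 round of clustering. They were 2.72 and 3.13 with only the fixed lists kept out, and 3.37 and 3.68 with classes from marker UMIs. Without the replicate block, 40 genes were higher against enterocyte-like cells, 38 against T or NK-like cells, 7 were called in B or plasma-like cells and 2 in myeloid-like cells. In B or plasma-like cells 10 of the 40 genes were called in the main fit. The count was 5 with total-UMI scaling, 6 with only the 2 classes in the fit, 0 with all genes in the clustering and 17 with only the fixed lists kept out. With all genes in the clustering, Pclaf (-0.32), Rrm2 (-0.083), Plk1 (-6.13) and Cenpf (-8.23) turned negative there, where the 2 cells with the most mitosis UMIs fell in an unnamed cluster; Cenpf was also -0.29 with total-UMI scaling, and Mcm4 in crypt against T or NK-like cells -0.026. Without replicate 2 the B or plasma-like medians were -2.51 (S phase) and -2.95 (mitosis), and without replicate 1 they were 0.71 and 2.12. These medians, and the myeloid-like ones without a replicate below, are of log2 ratios of CPM with 1 CPM added, without a fit. The 2 genes called in myeloid-like cells were 7 with total-UMI scaling or no filter, 1 with DESeq2, 6 under 10% mitochondrial UMIs, 5 at resolution 2.0, with classes from marker UMIs or after 1 round of clustering, and 4 with all genes in the clustering. Cenpf there was -1.86 under 10% mitochondrial UMIs, -1.14 without the top 6% of doublet scores and -1.49 with classes from marker UMIs, and the mitosis median was 0.49 without replicate 1 and -1.17 without replicate 2. The cause was not tested.

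The S-phase share of crypt cells (mean 32.0%) was 34.2% at resolution 2.0, 35.9% with all genes in the clustering, 35.95% with classes from marker UMIs, 34.7% with only the fixed lists kept out, 35.9% after 1 round, 35.9% without the deep clusters and 29.2% with only those, for which no test was made since control 2 has 17 such cells. That of T or NK-like cells (65.4%) was 69.1% without the top doublet scores, 67.3% at resolution 0.5, 66.2% at 2.0, 67.8% with all genes in the clustering, 67.0% with classes from marker UMIs, 75.4% with only the fixed lists kept out and 67.3% with unnamed lymphocyte clusters added. The enterocyte-like share (70.7%) was 52.3% with classes from marker UMIs, 42.1% with only the fixed lists kept out and 41.6% after 1 round. The settings that keep only the fixed lists out, use 1 round, split the crypt class or add lymphocyte clusters were chosen after seeing the data.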
